A study of Mus musculus with 21 samples.

Results

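Fpr1 and Fpr2 encode formyl peptide receptors, and the 2 genes were matched by symbol among 27179 gene IDs in the count table. They were chosen by the size of the Fpr1 rise after CAWS in 1 macrophage population, R3, so both genes' values in that contrast are a description without a test. CAWS is a water-soluble extract of the yeast Candida albicans that induces an arteritis in mice, used as a model of Kawasaki disease. RNA was sequenced from 21 libraries of C57BL/6 mouse cells in 7 groups of 3. The groups were CAWS-challenged R1, R2 and R3 cardiac macrophages, R1, R2 and R3 cardiac macrophages of naive mice, and splenic monocytes of naive mice. R1 cells were sorted as Ccr2-negative with low MHC-II, R2 as Ccr2-negative with high MHC-II, R3 as Ccr2-positive with high MHC-II, and the monocytes as Ccr2-positive. Each library came from a pool of mice. The labels give no time between challenge and sorting, and no age or sex of the mice.

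Formyl peptide receptors are G-protein-coupled receptors of phagocytes that couple to inhibitory G proteins and guide cells towards peptides starting with a formylated methionine. Such peptides come from bacteria and from the mitochondria of damaged cells. Fpr1 is the high-affinity receptor for them, and Fpr2 also binds other ligands, among them annexin A1, serum amyloid A and cathelicidin. Both receptors are best known in neutrophils and monocytes, where they drive chemotaxis and the oxidative burst.

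The genes lie side by side on mouse chromosome 17 and are transcribed away from each other. Fpr1 (gene ID 14293) spans chr17:17876471-17883939 of GRCm38.p6 on the minus strand, and Fpr2 (gene ID 14289) spans chr17:17887824-17893952 on the plus strand. Their start sites are separated by 3884 bases, and no other annotated gene overlapped either of them. In GENCODE M21 the single Fpr1 transcript has 2 exons, with all of its coding sequence in the second. Fpr2 has a transcript of the same layout and another of 3 exons with coding sequence in 2 of them. Because the genes share this intergenic stretch, the 250 bases before each start site are shown, from RefSeq on GRCm38.p6, each written 5′ to 3′ along its own gene, chr17:17883940-17884189 on the minus strand for Fpr1 and chr17:17887574-17887823 on the plus strand for Fpr2. Capitals mark matches to the motifs searched.
Fpr1: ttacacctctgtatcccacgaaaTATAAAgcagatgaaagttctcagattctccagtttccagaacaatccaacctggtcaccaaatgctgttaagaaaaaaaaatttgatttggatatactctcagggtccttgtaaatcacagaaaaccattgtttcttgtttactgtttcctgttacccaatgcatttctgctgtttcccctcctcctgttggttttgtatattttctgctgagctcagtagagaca
Fpr2: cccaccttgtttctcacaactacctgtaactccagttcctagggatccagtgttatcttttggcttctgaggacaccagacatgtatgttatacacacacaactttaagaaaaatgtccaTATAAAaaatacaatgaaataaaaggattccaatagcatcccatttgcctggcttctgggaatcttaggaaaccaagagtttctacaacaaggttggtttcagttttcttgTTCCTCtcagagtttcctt
Each stretch held 1 match to TATAAA, the core of a TATA box, starting 227 bases before the start of Fpr1 and 130 before that of Fpr2. A match to this motif on either strand occurred in 12.4% of 32851 promoters of the same length. GAGGAA, the core bound by the myeloid factor PU.1, matched once before Fpr2, at 19 bases and on the opposite strand, did not match before Fpr1, and occurred in 23.3% of promoters. TTNNGCAA for C/EBP factors and TGANTCA for AP-1 matched neither stretch on either strand, and occurred in 9.56% and 6.75% of promoters. No match overlapped another. The motifs were chosen after the sequences were seen.

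Of 7 listed genes of the family, Fpr1 and Fpr2 alone had enough counts to be tested. Fpr1 had 4339 counts over the 21 libraries and Fpr2 had 8227. Fpr3 had 2 counts in all, 1 in each of 2 libraries. Fpr-rs3, Fpr-rs4, Fpr-rs6 and Fpr-rs7, relatives known in mice from the vomeronasal organ, had 0, which allows up to 3 counts or 0.00835 CPM over all libraries, counting error only (CPM is the count scaled to library size). The coding sequences of Fpr1 and Fpr2 were 66.0% identical, and their transcripts shared no exact stretch longer than 50 bases. Fpr2 and Fpr3 were 88.2% identical with a shared stretch of 94 bases, so the Fpr2 counts are uncertain to the extent that reads were split between them.

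Library totals ran from 12800136 to 23006155 counts and were lowest in CAWS R3. The counts behind the values below ran from 41 to 472 per library for Fpr1 and from 130 to 904 for Fpr2. The macrophage label was checked against Adgre1, Csf1r, Cd68, Mertk, Fcgr1 and C1qa, which were present in all 6 heart groups. Their summed level ran from 10802 to 17919 CPM in heart libraries and from 4213 to 4893 CPM in the monocytes.

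The first question was how CAWS moved the receptors in R1, the Ccr2-negative macrophages with low MHC-II. Both rose. Fpr1 measured 18.9, 27.4 and 23.0 CPM in CAWS R1 libraries, against 9.01, 6.95 and 11.7 CPM in naive R1 libraries. Fpr2 measured 28.3, 30.5 and 23.2 CPM in CAWS R1, against 9.25, 12.4 and 8.75 CPM in naive R1. Every CAWS library lay above every naive library for both genes. Fpr1 was 2.51-fold higher (log2 fold change 1.33 ± 0.20, SE, adjusted p = 0.000252, edgeR quasi-likelihood test) and Fpr2 2.70-fold higher (1.43 ± 0.18, adjusted p = 2.42e-05). Genes past the same test and higher in CAWS R1 made up 6.07% of the 13275 tested. In sorted bulk cells, more cells of a type and more RNA per cell cannot be told apart.

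In R2, the Ccr2-negative macrophages with high MHC-II, both receptors rose again. Fpr1 measured 17.1, 20.9 and 20.6 CPM in CAWS R2, against 4.11, 4.27 and 3.83 CPM in naive R2. Fpr2 measured 27.0, 26.0 and 25.7 CPM in CAWS R2, against 14.6, 8.99 and 10.5 CPM in naive R2. The groups did not overlap for either gene. Fpr1 was 4.82-fold higher (log2 fold change 2.27 ± 0.23, adjusted p = 5.86e-07) and Fpr2 2.29-fold higher (1.19 ± 0.17, adjusted p = 6.72e-05), where 6.79% of all genes tested were past the test and higher. The Fpr1 effect in R2 exceeded that in R1 by 0.94 ± 0.31 on the log2 scale, which did not pass across all genes (adjusted p = 0.508, edgeR). The Fpr2 effect differed by -0.24 ± 0.25 (adjusted p = 1.00). Of all genes, 0.0527% passed this test of the difference between the R2 and R1 effects.

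R3, the Ccr2-positive macrophages, is the population in which Fpr1 was picked, so no test is given. Fpr1 measured 18.3, 27.8 and 23.4 CPM in CAWS R3 libraries, against 3.36, 3.83 and 5.29 CPM in naive R3 libraries. Fpr2 measured 32.7, 38.5 and 29.7 CPM in CAWS R3, against 7.53, 7.61 and 9.07 CPM in naive R3. The 3 CAWS libraries lay above the 3 naive libraries for both genes. The log2 fold change was 2.49 ± 0.23 for Fpr1 and 2.06 ± 0.18 for Fpr2, or 5.61-fold and 4.18-fold. In this contrast 6.7% of all genes were past the test and higher.

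**Figure D1:**
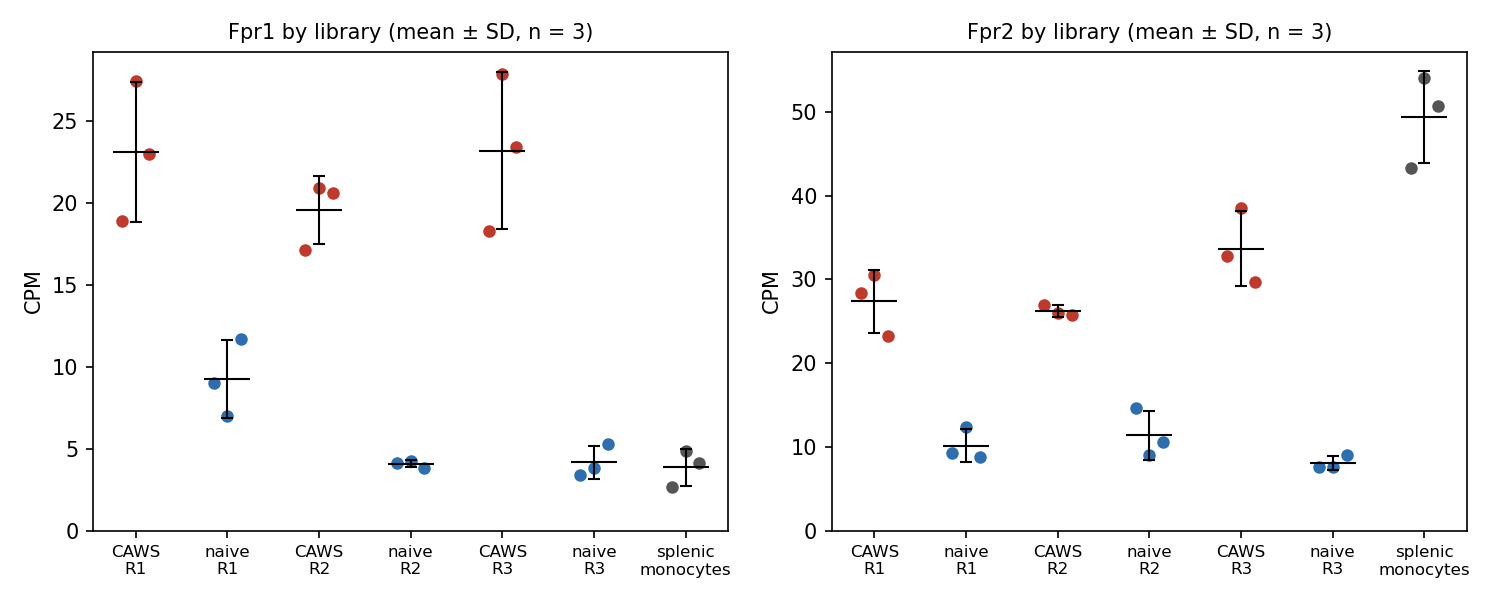
Level of Fpr1 (left) and Fpr2 (right) in CPM in each of 21 libraries, by group, with points for libraries and bars for the mean and SD of 3. CAWS groups (red) lie above their naive groups (blue) without overlap for both genes, and the monocytes (grey) are lowest for Fpr1 and highest for Fpr2 by mean.

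**Figure D2:**
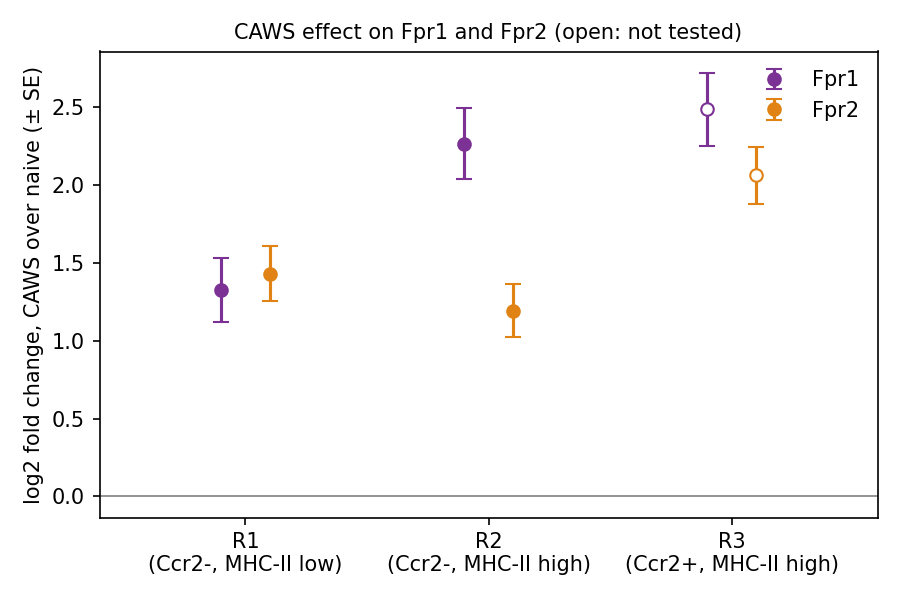
Log2 fold change of CAWS over naive macrophages for Fpr1 and Fpr2 in R1, R2 and R3, with standard errors. Filled points were tested, and open points in R3 are the contrast on which Fpr1 was chosen. The 6 values run from 1.19 to 2.49.

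Across the 7 groups the receptors had different orders. Mean Fpr1 was 23.1 ± 4.26 CPM in CAWS R1 and 9.22 ± 2.37 in naive R1, 19.5 ± 2.08 in CAWS R2 and 4.07 ± 0.219 in naive R2, 23.2 ± 4.78 in CAWS R3 and 4.16 ± 1.01 in naive R3, and 3.86 ± 1.12 in splenic monocytes (SD, n = 3 each). By mean, CAWS R3 was highest, then CAWS R1, CAWS R2, naive R1, naive R3, naive R2 and monocytes. The 3 CAWS groups overlapped one another, as did the 3 lowest groups, and naive R1 lay between them without overlap. Mean Fpr2 was 27.4 ± 3.76 CPM in CAWS R1 and 10.1 ± 1.99 in naive R1, 26.2 ± 0.676 in CAWS R2 and 11.4 ± 2.92 in naive R2, 33.7 ± 4.49 in CAWS R3 and 8.07 ± 0.865 in naive R3, and 49.4 ± 5.48 in splenic monocytes (SD, n = 3 each). The monocytes stood above every heart library, followed by CAWS R3, CAWS R1 and CAWS R2, then naive R2, naive R1 and naive R3. The naive macrophage groups overlapped one another. CAWS R1 overlapped both other CAWS groups, while CAWS R3 and CAWS R2 did not overlap.

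Among naive macrophages, the Ccr2-negative populations differed in Fpr1. Fpr1 was lower in naive R2 than in naive R1 (log2 fold change -1.18 ± 0.25, adjusted p = 0.00314), with no overlap, where 7.13% of all genes passed in either direction. Fpr2 did not pass between them (0.18 ± 0.19, adjusted p = 0.697). After CAWS neither gene passed between R2 and R1, with Fpr1 at -0.23 ± 0.19 (adjusted p = 0.673) and Fpr2 at -0.06 ± 0.16 (adjusted p = 0.939). In that comparison 3.77% of genes passed in either direction. Fpr2 in naive R3 stood at -0.33 ± 0.20 against naive R1 (adjusted p = 0.255) and at -0.51 ± 0.19 against naive R2 (adjusted p = 0.09), neither past the test, where 23.2% and 12.4% of genes passed in either direction. Fpr1 in naive R3, not tested because its naive R3 values took part in the choice of the gene, stood at -1.15 ± 0.25 against naive R1 and 0.02 ± 0.28 against naive R2.

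Splenic monocytes had the highest mean Fpr2 and the lowest mean Fpr1 of the 7 groups. Fpr2 measured 8.07 to 11.4 CPM by mean in naive macrophages, against 43.3, 54.1 and 50.7 CPM in the monocyte libraries. It was lower in naive R1 (log2 fold change -2.28 ± 0.17, adjusted p = 1.24e-10), naive R2 (-2.11 ± 0.17, adjusted p = 2.85e-10) and naive R3 (-2.62 ± 0.18, adjusted p = 3.34e-11) than in monocytes. These comparisons moved much of the transcriptome, with 63.3%, 63.6% and 58.9% of genes past the test in either direction. Mean Fpr1 lay between 4.07 and 9.22 CPM in naive macrophages, against 2.64, 4.85 and 4.09 CPM in the monocyte libraries. It was higher in naive R1 than in monocytes (1.25 ± 0.26, adjusted p = 0.00023). In naive R2 it stood at 0.08 ± 0.28 against monocytes (adjusted p = 0.829, edgeR), and in naive R3 at 0.10 ± 0.29 with no test.

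Per base of gene length, Fpr2 was the more abundant of the pair in 20 of 21 libraries. The ratio of Fpr1 to Fpr2 per gene length averaged 0.833 in CAWS R1 and 0.937 in naive R1, 0.731 in CAWS R2 and 0.366 in naive R2, 0.675 in CAWS R3 and 0.501 in naive R3, and 0.0755 in monocytes. The exception was naive R1 replicate 3, at 1.31. In R2 the ratio ran from 0.622 to 0.786 in CAWS libraries, against 0.275 to 0.465 in naive libraries, with no overlap. In R1 and R3 the CAWS and naive ranges overlapped. The monocytes, from 0.0596 to 0.0878, lay below every heart library.

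**Figure D3:**
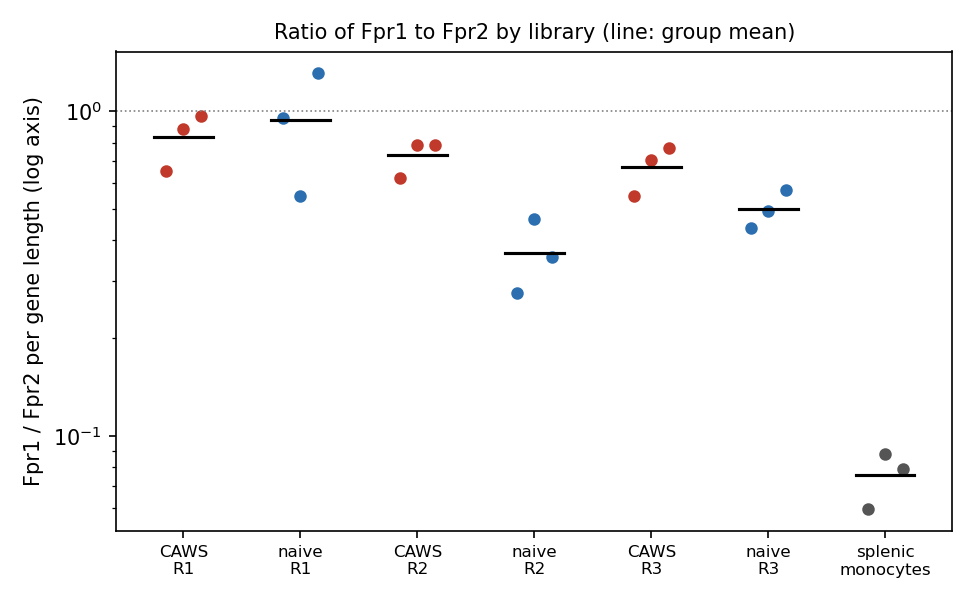
Ratio of Fpr1 to Fpr2, each in CPM per gene length, in each library on a log axis, with lines at group means. Heart libraries run from 0.275 to 1.31 and monocyte libraries from 0.0596 to 0.0878.

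Over the 18 heart libraries, log2 levels of the receptors correlated at r = 0.886, and over all 21 libraries at r = 0.378. The points share groups, pools and library scaling, and they include the R3 libraries on which Fpr1 was chosen. Deviations of single libraries from their group means correlated at r = 0.135.

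The genes most like each receptor over the 21 libraries were ranked by Pearson correlation of log2 CPM among 10982 genes. For Fpr1 they were Hvcn1, the proton channel of phagocytes (r = 0.940), Nxpe5 (0.937), the cytosolic dipeptidase Cndp2 (0.924), the spindle-associated gene Psrc1 (0.915) and Smim24 (0.886). Hvcn1 averaged 62.3 CPM in CAWS R1 and 32.4 in naive R1, 67.0 in CAWS R2 and 21.5 in naive R2, 53.1 in CAWS R3 and 21.4 in naive R3, and 20.5 in monocytes. As with Fpr1, naive R2, naive R3 and monocytes had its lowest means, which follows from its choice by correlation over the same libraries. For Fpr2 they were the C-type lectin Clec4a1 (r = 0.949), the adiponectin receptor Adipor1 (0.924), Miip (0.910), the NF-kB inhibitor partner Tnip1 (0.910) and Gatd1 (0.905). Tnip1 averaged 60.5 CPM in CAWS R1 and 32.3 in naive R1, 63.5 in CAWS R2 and 32.6 in naive R2, 68.1 in CAWS R3 and 36.8 in naive R3, and 91.6 in monocytes. The receptors themselves were far down each other's ranking over the 21 libraries, Fpr2 at place 1930 from Fpr1 (r = 0.378). No ranking was made over the 18 heart libraries alone, where the pair correlated at r = 0.886.

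Of the receptors' ligands, Anxa1 and Saa3 rose, and the others did not pass or were too low to test. Anxa1, the source of annexin A1, which acts through Fpr2, averaged 151 CPM in CAWS R1 and 90.4 in naive R1, 150 in CAWS R2 and 39.3 in naive R2, 235 in CAWS R3 and 144 in naive R3, and 650 in monocytes. Its log2 fold change was 0.75 ± 0.12 in R1 (adjusted p = 0.000308) and 1.93 ± 0.12 in R2 (adjusted p = 6.78e-10). Saa3, an acute-phase serum amyloid A of macrophages, had 3153 counts in CAWS R1 and 8 in naive R1, 618 in CAWS R2 and 3 in naive R2, and 278 in CAWS R3 and 23 in naive R3, summed over 3 libraries. Its rise passed in R1 (adjusted p = 1.3e-07) and R2 (adjusted p = 2.15e-05). Hebp1, whose product yields an Fpr2 peptide ligand, did not pass in R1 (0.57 ± 0.20, adjusted p = 0.0785) or R2 (0.14 ± 0.19, adjusted p = 0.722), nor did Mtfmt, the enzyme that formylates mitochondrial initiator tRNA (0.10 ± 0.26 in R1, adjusted p = 0.878; -0.58 ± 0.26 in R2, adjusted p = 0.176). Camp, the cathelicidin, and the neutrophil protease Ctsg had 0 counts in every heart group, and averaged 4.94 and 1.22 CPM in monocytes. Camp ran from 0.129 to 9.64 CPM in the monocyte libraries. In all, 2 of 9 genes of the ligand list rose in each population, where 6.07% of all genes tested rose in R1, 6.79% in R2 and 6.7% in R3. The list had 6 genes with enough counts to be tested, of which Ctsg passed the filter through the monocytes alone.

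Of the peptidases that break down formyl peptides, Mme was too low to test, at 14 counts in all. Anpep (CD13) rose in R1, averaging 47.7 CPM in CAWS R1 and 24.6 in naive R1 (0.95 ± 0.16, adjusted p = 0.000787), and in R2 (90.0 CPM in CAWS R2 and 52.1 in naive R2, 0.79 ± 0.15, adjusted p = 0.00164). In R3 it averaged 56.7 CPM in CAWS and 58.1 in naive libraries.

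Other receptors for chemoattractants and related mediators rose in 3 of 10 genes in R1 and 5 of 10 in R2. Over all genes tested, 6.07% rose in R1 and 6.79% in R2. In R3, where 6.7% of all genes tested rose, 3 of the 10 rose, and Gpr35 and Ltb4r1 did not pass. The list medians were 0.31 in R1 and 0.38 in R2 on the log2 scale, where all genes tested had medians of 0.03 and 0.02. The prostaglandin E2 receptor Ptger4 rose by 1.10 ± 0.14 in R1 (adjusted p = 3.39e-05) and 0.63 ± 0.13 in R2 (adjusted p = 0.00332). Gpr35 rose by 1.59 ± 0.37 in R1 (adjusted p = 0.0114) and 2.35 ± 0.34 in R2 (adjusted p = 0.000164). Ltb4r1, the leukotriene B4 receptor, rose in R2, averaging 14.3 CPM in CAWS R2 and 1.07 in naive R2 (3.70 ± 0.63, adjusted p = 0.000906), and did not pass in R1 (1.96 ± 0.63, adjusted p = 0.0659). Ptger2, another prostaglandin E2 receptor, rose in R2 (1.67 ± 0.33, adjusted p = 0.00199) and not past the test in R1 (0.41 ± 0.30, adjusted p = 0.457). The remaining riser in both was the niacin receptor Hcar2, named after its values were seen (1.52 ± 0.42 in R1, adjusted p = 0.0263; 1.62 ± 0.36 in R2, adjusted p = 0.005). The R1 rise of Gpr35 did not pass with only the groups compared (adjusted p = 0.177), nor without naive R1 replicate 2 or 3 or CAWS R1 replicate 2, where the last gave 0.95 on the log2 scale. The R1 rise of Hcar2 did not pass with limma voom (adjusted p = 0.0585) or in 5 of the 6 fits that left out 1 R1 library. The R1 value of Ltb4r1 passed under 5 of 30 alternatives. Among them were DESeq2 (adjusted p = 0.00473) and the pool of mice as a block (adjusted p = 0.00873). Gpr35 averaged 21.2 CPM in CAWS R1 and 44.4 in CAWS R2, against 280 in monocytes. In monocytes Ltb4r1 averaged 185 CPM, Ptger4 70.9, Ptger2 7.85 and Hcar2 4.75.

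Downstream of the receptors, 2 of 18 signalling genes rose in R1 and in R2, where 6.07% and 6.79% of all genes tested rose. They were the Src-family kinase Fgr, with 3488 counts in CAWS R1 and 681 in naive R1 (2.29 ± 0.28, adjusted p = 6.23e-05) and 4677 in CAWS R2 and 747 in naive R2 (2.95 ± 0.28, adjusted p = 1.5e-06), and Rac2, the small GTPase of the phagocyte oxidase (0.70 ± 0.09 in R1, adjusted p = 6.37e-05; 0.62 ± 0.09 in R2, adjusted p = 0.000133). In CPM, Fgr ran from 41.2 to 103 in CAWS R1 libraries, and averaged 177 in CAWS R3 and 935 in monocytes. Rac2 averaged 379 CPM in CAWS R1, 536 in CAWS R3 and 691 in monocytes. Falls past the test made up 2.87% of all genes tested in R1 and 3.5% in R2. The signalling gene whose fall passed in R1 was Gna15, a G protein alpha subunit named after its values were seen (-0.40 ± 0.12, adjusted p = 0.0377). The falls in R2 were Gnai3, an inhibitory alpha subunit (-0.31 ± 0.09, adjusted p = 0.0286), and the kinase subunit Pik3cg (-0.40 ± 0.11, adjusted p = 0.0208), which in R1 stood at -0.17 ± 0.09 and -0.18 ± 0.11 without passing. Gnai3 did not pass in any of the 6 fits that left out 1 R2 library, nor Pik3cg in 4 of them, nor Gna15 in 3 of the 6 that left out 1 R1 library. Over all alternatives the log2 values stayed between -0.34 and -0.29 for Gnai3 in R2, -0.47 and -0.36 for Pik3cg in R2, and -0.49 and -0.29 for Gna15 in R1. With only the groups compared, Fgr in R1 had an adjusted p of 0.0765. Of 9 arrestins, receptor kinases and regulators of G-protein signalling, which switch such receptors off, 0 passed in R1 or R2 by edgeR. At an unadjusted p under 0.05 there were 4 in R1 and 1 in R2, and DESeq2 called 2 in R1 and 0 in R2, as did limma voom. Grk3, with the smallest p of them, stood at 0.78 ± 0.26 in R1 (adjusted p = 0.0682). Of 5 NADPH oxidase subunits, which carry out the burst, Ncf4 rose in R1 (0.47 ± 0.10, adjusted p = 0.00422) and R2 (0.40 ± 0.10, adjusted p = 0.011) and the other 4 did not pass by edgeR. At an unadjusted p under 0.05 there were 3 of the 5 in R1 and 2 in R2. DESeq2 called 1 in R1 and 1 in R2, and limma voom 3 in R1 and 2 in R2. Without naive R2 replicate 2 or 3, or CAWS R2 replicate 2, Ncf4 in R2 did not pass (adjusted p 0.0583, 0.0676 and 0.0653).

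Over all 58 pathway genes other than the receptors themselves, 49 had enough counts to be tested. In R1 9 rose and 1 fell, or 18.4% and 2.04%, with 6.07% of all genes tested past the test and higher and 2.87% lower. In R2 11 rose and 2 fell, or 22.4% and 4.08%, with 6.79% higher and 3.5% lower. In R3, where Fpr1 was chosen, 9 rose and 3 fell, or 18.4% and 6.12%, with 6.7% higher and 8.29% lower. The list median was 0.17 in R1 and 0.11 in R2 on the log2 scale, where all genes tested had medians of 0.03 and 0.02. In R3 the list median was 0.0, where all genes tested had a median of -0.06. These genes were listed with earlier results of the data known.

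**Figure D4:**
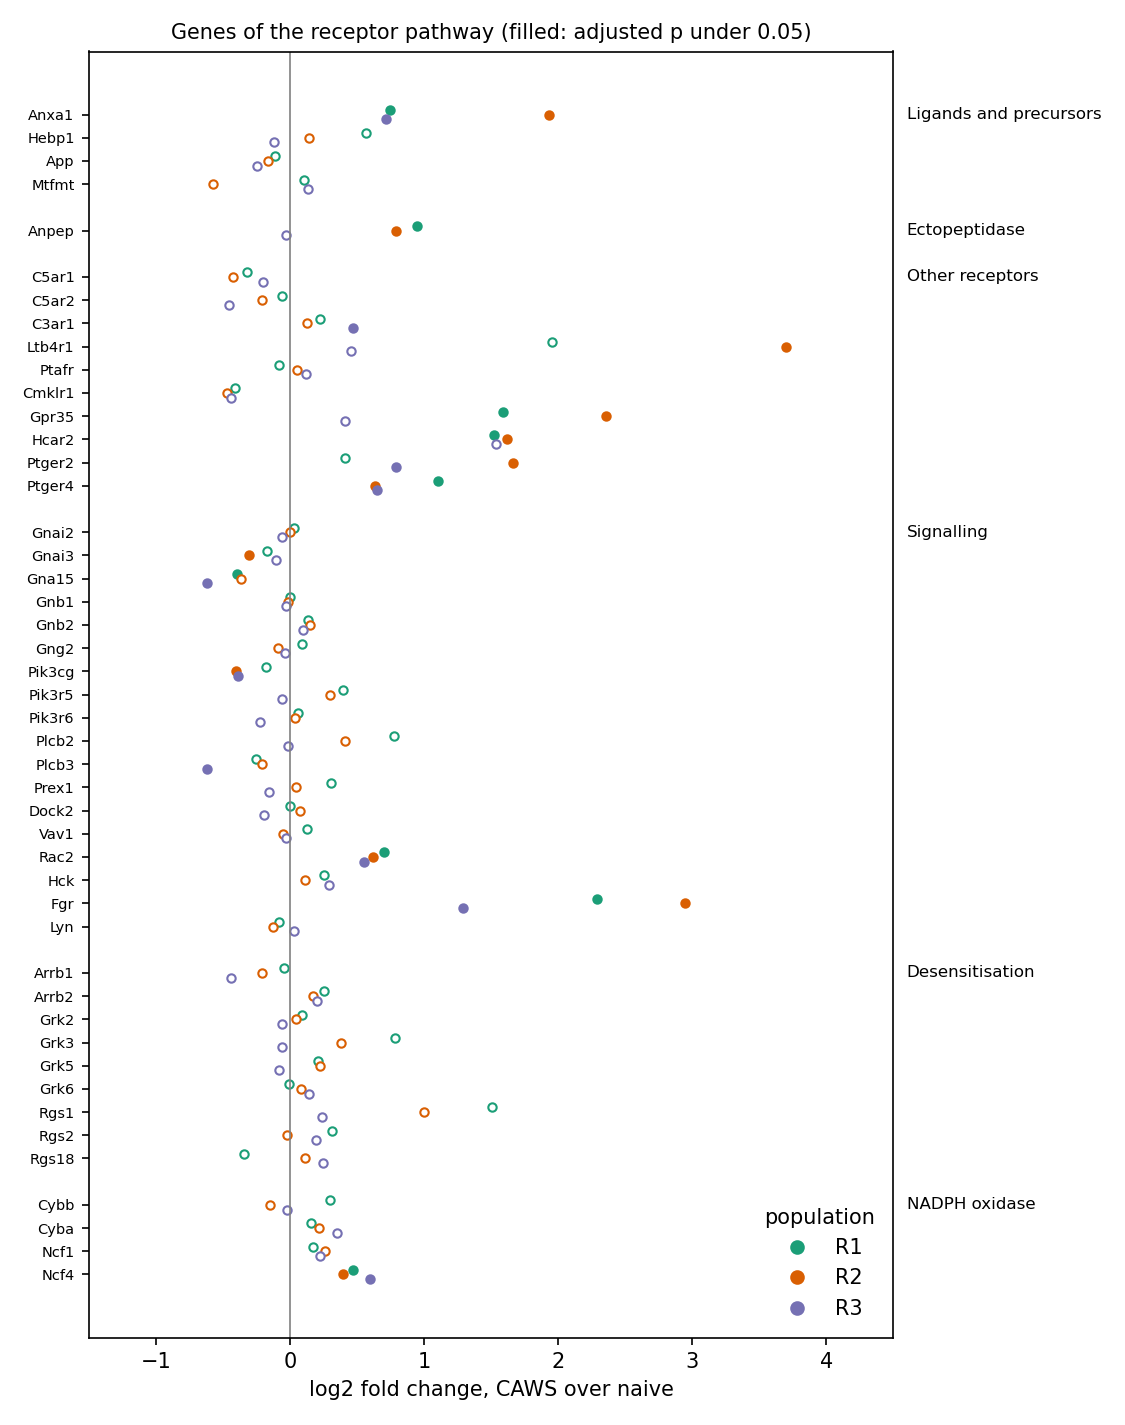
Log2 fold change of CAWS over naive macrophages for tested genes of the pathway lists in R1, R2 and R3, with filled points past the test at adjusted p under 0.05. Saa3 and Ctsg are left out because they had few or no counts in naive groups. Most signalling and desensitisation genes lie near 0, while the kinase Fgr and several genes of the list of other receptors lie to the right.

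Markers of other cells were followed beside the receptors. Of 13 neutrophil markers, 11 had enough counts to be tested. In R1 1 rose, where 6.07% of all genes tested rose. In R2 0 passed by edgeR, with 2 at an unadjusted p under 0.05, 1 by DESeq2 and 2 by limma voom. Over all genes tested, 6.79% rose in R2 by edgeR. Ly6g, which marks neutrophils, had 0 counts in every heart group, and the granule gene Ngp averaged at most 0.0181 CPM in the heart groups. The list summed to 221 to 346 CPM in CAWS R1 and 229 to 350 in naive R1, and to 184 to 270 in CAWS R2 and 172 to 328 in naive R2, mostly from Mmp9, at 162 to 232 CPM by mean in those groups. The riser was Csf3r, the G-CSF receptor of neutrophils and monocytes (0.65 ± 0.12 in R1, adjusted p = 0.00119). In R3 the list summed to 142 to 168 CPM in CAWS and 118 to 453 in naive libraries, where Csf3r averaged 104 and 54.7 CPM and Mmp9 46.7 and 181 CPM. The sum was highest in the monocytes, from 615 to 787 CPM, where Csf3r averaged 382 CPM and Mmp8 238. Ngp ran from 1.03 to 29.8 CPM and S100a9 from 1.29 to 34.6 in the monocyte libraries, and Ly6g had 7 counts over them. The part of such transcripts in the monocyte Fpr2 level was not tested.

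Of 8 classical monocyte markers, 2 rose in R1 and 5 in R2, where 6.07% and 6.79% of all genes tested rose, with Ccr2 at 80.5 CPM in CAWS R1 and 6.58 in naive R1, and 231 in CAWS R2 and 29.3 in naive R2, against 3262 in monocytes. The monocyte list summed to 3765 to 4895 CPM in CAWS R1 and 5537 to 6982 in naive R1, and to 2389 to 2480 in CAWS R2 and 2320 to 3020 in naive R2, sums made up mostly of F13a1. In R3 2 of the 8 rose and 1 fell, where 6.7% of all genes rose and 8.29% fell, and the list summed to 4347 to 5026 CPM in CAWS R3 and 3841 to 4615 in naive R3. Of 7 dendritic cell markers, 4 rose in R1 and 6 in R2 by edgeR, where 6.07% and 6.79% of all genes tested rose. DESeq2 called 4 in R1 and 6 in R2, and limma voom 1 in R1 and 6 in R2. The 7 markers summed to 20.1 to 52.1 CPM in CAWS R1 and 8.75 to 10.9 in naive R1. In R2 they summed to 121 to 334 CPM in CAWS and 16.7 to 20.6 in naive libraries. No listed monocyte or dendritic cell marker was at 0 in every library of any group. In R3 0 of the 7 dendritic cell markers rose, and the dendritic sum ran from 225 to 403 CPM in CAWS and 275 to 539 in naive libraries. Of 5 resident macrophage markers, 2 fell in R1, where 2.87% of all genes tested fell, against 3.5% in R2. In R2 0 passed by edgeR, with 2 at an unadjusted p under 0.05, 0 by DESeq2 and 2 by limma voom. They summed to 7123 to 8995 CPM in CAWS R1 and 11133 to 11599 in naive R1, to 5063 to 5200 in CAWS R2 and 6092 to 6900 in naive R2, and to 1903 to 2010 in CAWS R3 and 3350 to 5247 in naive R3, where all 5 fell. The part of these cells in the receptor changes was not tested. In splenic monocytes Fpr1 averaged 3.86 CPM, in a range that overlapped naive R2 and naive R3, and Fpr2 averaged 49.4 CPM, above every heart library.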

How the data were processed

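The deposited counts of reads per gene were made by the authors with featureCounts on mm10, per the submitters' processing notes, and are not normalised. Aligner, annotation release and strand setting: not given in the sources used here. Gene length, per the file headers, is in bases. Per-sample counts equalled the combined table in 21 of 21 libraries. Symbols came from RefSeq GRCm38.p6 by gene ID (25275 of 27179 matched), and all 99 list entries matched. CPM uses TMM-adjusted library sizes (factors 0.9093 to 1.065). Genes passing filterByExpr (minimum count 10, total 15) were tested, 13275 in all, with R 4.3.3 and edgeR 4.0.16 (robust quasi-likelihood, 1 mean per group, 14 residual degrees of freedom, two-sided), Benjamini-Hochberg adjusted over all genes, threshold 0.05. Each SE is the absolute log2 fold change over the square root of F. The fit was tested on simulated data. The floor given for genes with 0 counts covers counting error only.

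Named genes were the members, up to 4 per list with the smallest p in R1 and R2, and the 5 most like each member (prior count 2, highest group mean log2 CPM at least 1). Members and lists were chosen with earlier results of these data known. The series design gives independent pools, each divided into R1, R2 and R3, so the replicate number was read as the pool within a treatment. Same-numbered libraries deviated from their group means together there, with 18 correlations from 0.0162 to 0.253 over all tested genes and from 0.138 to 0.585 over 8677 genes with mean log2 CPM of at least 3. Across treatments or tissue they ran from -0.239 to 0.653 over those 8677 genes, and the highest, between CAWS R3 and monocytes of naive mice, exceeded every value within a treatment. By the series design CAWS and naive pools are separate mice, and the main fit has no block. Alternatives were DESeq2 1.42.0, limma 3.58.1 voom, other scaling and filters, the older edgeR fit, only the groups compared, replicate blocks, and each library left out. The values of 1 list gene are not reported here.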

Additional observations from a re-analysis of the deposited data

How the results depend on the processing

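The 22 fold changes of Fpr1 and Fpr2 were recomputed under 30 alternatives each, 21 of them leaving out 1 library. The 9 tests that passed did so under all of them, and the other 8 passed under none. For CAWS against naive, Fpr1 stayed at or above 1.15 in R1 and 2.21 in R2 and Fpr2 at or above 1.33 and 1.05, with the highest adjusted p at 0.0042. Fpr1 in naive R2 against naive R1 ran from -1.34 to -0.99, with adjusted p up to 0.0327. With a replicate block for the pool within treatment, Fpr1 rose by 1.32 (adjusted p = 0.000115) in R1 and 2.27 in R2, and with a block by number across groups by 1.31 and 2.26. No block changed a call of either gene. With the pool block, Ltb4r1 and Rgs1 also passed in R1, and Gna15 and Rgs1 in R2. Values near 0 turned their sign without passing: Fpr2 in naive R2 against naive R1 (-0.046 without naive R2 replicate 1, highest 0.34), Fpr2 in CAWS R2 against CAWS R1 (0.031 without CAWS R1 replicate 2, lowest -0.17) and Fpr1 in naive R2 against monocytes (-0.16 to 0.26 over libraries left out, lowest without monocytes replicate 1). Among named pathway genes the same held for Hebp1 in R2 (-0.057 to 0.23 over libraries left out), Mtfmt in R1 (-0.10 to 0.24) and Rgs2 in R2 (-0.058 to 0.0093). Fpr1 in naive R3, where no test is given, ran from -0.18 to 0.16 against naive R2 and from -0.14 to 0.35 against monocytes.

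Counts of all genes past the test, which set the background shares, moved more. For CAWS against naive they were 1187 in R1 (673 to 1801 with 1 library left out), 1365 in R2 (726 to 2060, 2835 with limma voom and 2785 with only the groups compared) and 1991 in R3 (973 to 2816, 3309 with limma voom). For the R2 effect minus the R1 effect the count was 7 (1 to 26 with 1 library left out), and 57 with DESeq2, 14 with no filter, 12 with the older edgeR fit, 28 with limma voom, 33 with only the groups compared, 15 with the pool block and 23 with the number block. For naive R2 against naive R1 it was 946 (588 to 1375, 1531 with only the groups compared), for CAWS R2 against CAWS R1 501 (227 to 765, 804 with limma voom and 794 with only the groups compared) and for naive R3 against naive R2 1646 (1060 to 2313). The counts 1801, 2060, 26 and 765 came without monocytes replicate 2. The cause was not tested. The 10 pathway genes past the test in R1 became 21 without monocytes replicate 2, and the 13 in R2 became 21 with only the groups compared. By Spearman correlation, 2 of the 5 genes most like Fpr1 and 2 of the 5 most like Fpr2 stayed in the top 5. Nxpe5 and Clec4a1 stood at place 1, while Hvcn1 stood at place 38 and Tnip1 at place 130. CPM on unadjusted library sizes moved no group mean of either gene by more than its SD.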
